A study of Mus musculus with 2 samples.

Results

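Collagen genes were taken as the genes whose symbol is Col, a type number, a and a chain number, and 44 of the 32285 genes in the libraries have such a symbol. All 44 had at least 1 UMI in the nuclei kept, a UMI (unique molecular identifier) being 1 counted RNA molecule. Nuclei came from tibialis anterior (TA) muscle of 6-week-old male mice on the C57BL/6 background, sorted on 7-AAD, a DNA stain, and the right and left TA of 2 mice went into 1 library per group. The M-*Bcl6* KO group was Myf6-Cre+ *Bcl6* fl/fl and the M-*Bcl6* WT group was littermates that were Myf6-Cre+ *Bcl6* wt/wt, so the controls carry the Cre too. The Cre is driven by the Myf6 promoter, a promoter of skeletal muscle cells, while most collagen RNA is made by other cells. With 1 library per group no difference has a replicate check, no test was run, and each interval below is a 95% interval that covers counting error only.

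Collagens are secreted or membrane proteins whose chains wind into a triple helix. Fibrillar collagens build the fibrils of tendon and of the connective tissue around muscle fibres, and fibril-associated collagens sit on the fibril surface. Type IV collagen forms the network of the basement membrane around each fibre and vessel, and type VI collagen forms beaded microfibrils beside it. In muscle, interstitial fibroblasts called fibro-adipogenic progenitors (FAPs) make much of this matrix, and the contacts of the fibre with tendon (the myotendinous junction, MTJ) and nerve (the neuromuscular junction, NMJ) hold collagens of their own.

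The library labelled WT gave 3674 nuclei with 11430179 UMIs, the library labelled KO gave 3944 nuclei with 11470460 UMIs, and they shared 6 barcode sequences. Clusters were named from markers that hold no collagen and were made without collagen genes. Collagen genes were not left out of the doublet scores, nor of the 10 leading genes of a cluster, among which a marker had to appear. In the libraries labelled WT and KO there were 499 and 338 FAP-like nuclei, 223 and 130 endothelial-like, 186 and 127 MuSC-like (muscle stem cell), 159 and 117 pericyte- or smooth muscle-like, 97 and 62 macrophage-like and 52 and 51 tenocyte-like (tendon fibroblast) nuclei. Myonuclei numbered 2414 and 3087, of which 15 and 8 were NMJ-like and 14 and 8 MTJ-like, and most others were split by the myosin heavy chain gene with most UMIs in the nucleus. This mix differed between the libraries, with 1157 and 1169 nuclei with main *Myh1*, 230 and 479 with main *Myh2*, 696 and 611 with main *Myh4* and 301 and 793 with no main Myh, so values over all myonuclei also hold this difference. The 10 FAP markers summed to 11325 and 10427 CPM, UMIs scaled to a common depth of 1e+06 per class, in FAP-like nuclei and to 53.0 and 25.3 CPM in myonuclei. *Bcl6* went against its label, at 168 CPM in WT-labelled and 501 CPM in KO-labelled myonuclei. UMIs summed over the gene do not resolve the floxed exons, so this value checks nothing about the deletion, and libraries are called here by their labels.

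Collagens took the largest shares of UMIs in FAP-like and tenocyte-like nuclei. In FAP-like nuclei the 44 genes held 1.2% of UMIs (1.18 to 1.22) under the label WT and 1.11% (1.09 to 1.14). In tenocyte-like nuclei the shares were 1.22 and 1.21%, with overlapping intervals. Pericyte- or smooth muscle-like nuclei followed at 0.339 and 0.375%, MuSC-like nuclei at 0.236 and 0.277% and endothelial-like nuclei at 0.228 and 0.226%. Myonuclei held 0.0246 and 0.0192% and macrophage-like nuclei 0.0183 and 0.0415%. Among myonuclei the junction classes stood out, at 0.815 and 0.413% in NMJ-like and 0.402 and 0.535% in MTJ-like nuclei.

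**Figure D1:**
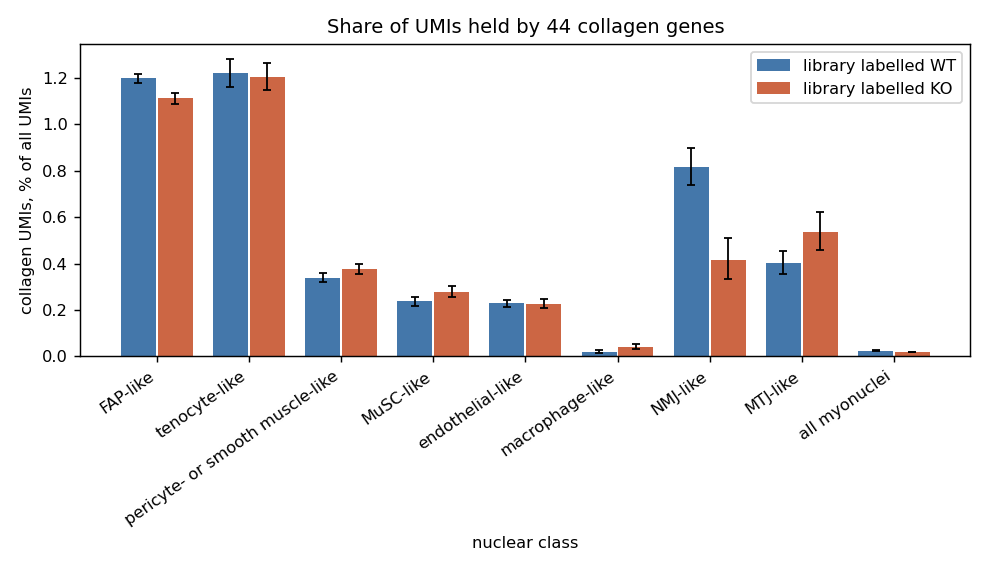
Share of UMIs held by the 44 collagen genes (y axis, percent of all UMIs of the class) in each nuclear class (x axis) for the libraries labelled WT (blue) and KO (red), with exact Poisson 95% intervals as error bars. FAP-like and tenocyte-like nuclei hold between 1.11 and 1.22%, and NMJ-like nuclei hold 0.815% in the library labelled WT against 0.413% in the library labelled KO.

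The type IV genes are shown first as sequence because they lie in 3 head-to-head pairs that read away from a shared stretch of DNA, and the pairs are compared between classes below. In GENCODE M21 (GRCm38), *Col4a1* (chr8:11198423-11312826, minus strand) and *Col4a2* (chr8:11312805-11449287, plus strand) overlap by 22 bases at their starts. *Col4a4* (chr1:82448423-82586849, minus) and *Col4a3* (chr1:82586921-82722059, plus) are 71 bases apart, and *Col4a6* (chrX:141165403-141474076, minus) and *Col4a5* (chrX:141475385-141689234, plus) are 1308 bases apart. The windows below, 1 for each pair, run from 250 bases before to 50 bases after a start given by RefSeq (GRCm38.p6), 5′ to 3′ on the strand of the named gene. They are chr8:11312777-11313076 (minus) for *Col4a1*, chr1:82586800-82587099 (minus) for *Col4a4* and chrX:141475169-141475468 (plus) for *Col4a5*, and capitals mark a GC box, GGGCGG or its complement on the other strand.
Col4a1: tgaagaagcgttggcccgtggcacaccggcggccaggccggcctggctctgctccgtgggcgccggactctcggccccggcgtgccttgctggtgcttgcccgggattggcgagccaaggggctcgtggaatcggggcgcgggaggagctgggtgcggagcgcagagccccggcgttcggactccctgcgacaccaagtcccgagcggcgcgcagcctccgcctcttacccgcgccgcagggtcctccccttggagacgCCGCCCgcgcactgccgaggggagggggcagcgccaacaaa
Col4a4: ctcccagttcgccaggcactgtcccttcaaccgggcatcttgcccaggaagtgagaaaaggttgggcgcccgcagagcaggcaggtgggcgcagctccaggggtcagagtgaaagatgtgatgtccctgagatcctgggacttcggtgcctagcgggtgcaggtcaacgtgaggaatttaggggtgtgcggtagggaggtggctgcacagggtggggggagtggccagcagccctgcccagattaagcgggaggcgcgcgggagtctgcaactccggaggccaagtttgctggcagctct
Col4a5: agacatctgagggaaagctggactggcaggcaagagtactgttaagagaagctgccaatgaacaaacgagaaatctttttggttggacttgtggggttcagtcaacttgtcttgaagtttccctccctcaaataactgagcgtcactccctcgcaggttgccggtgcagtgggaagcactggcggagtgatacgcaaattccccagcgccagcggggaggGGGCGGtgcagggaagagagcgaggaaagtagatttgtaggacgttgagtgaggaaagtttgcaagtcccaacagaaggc

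Read on both strands, GGGCGG was found once in the *Col4a1* window and once in the *Col4a5* window, and not in the *Col4a4* window. Of windows not shown, that of *Col4a2*, which overlaps the *Col4a1* window, held 3, and that of *Col4a6* held 1. GGGCGG was in 23 of the 38 windows of collagen genes (60.5%), which cover 35 of the 44 genes, and in 35.7% of all 32851 windows of this length. TTCNNNGAA was in 2 of the 38 windows, those of *Col28a1* and *Col6a5*, and in 8.30% of all windows. These are matches of letters and were not related to any level.

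A collagen was given a leading class where the class with the highest CPM over both libraries, among classes of at least 50 nuclei, held at least 20 of its UMIs. This gave a leading class to 34 of the 44. FAP-like nuclei led 16, tenocyte-like nuclei 11, MuSC-like nuclei 2 and myonuclei with main *Myh2* 2, and myonuclei with main *Myh4*, endothelial-like nuclei and pericyte- or smooth muscle-like nuclei led 1 each. The same class led in each library alone for 28 of the 34, and its interval lay above that of the second class for 26. When classes under 50 nuclei were ranked too, 22 of the 34 kept their leading class. No leading class could be given to *Col2a1*, *Col4a6*, *Col6a4*, *Col6a5*, *Col9a1*, *Col9a2*, *Col9a3*, *Col10a1*, *Col17a1* and *Col18a1*, which had between 1 UMI (*Col6a4*, *Col9a2*) and 92 UMIs (*Col18a1*) in all nuclei.

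**Figure D2:**
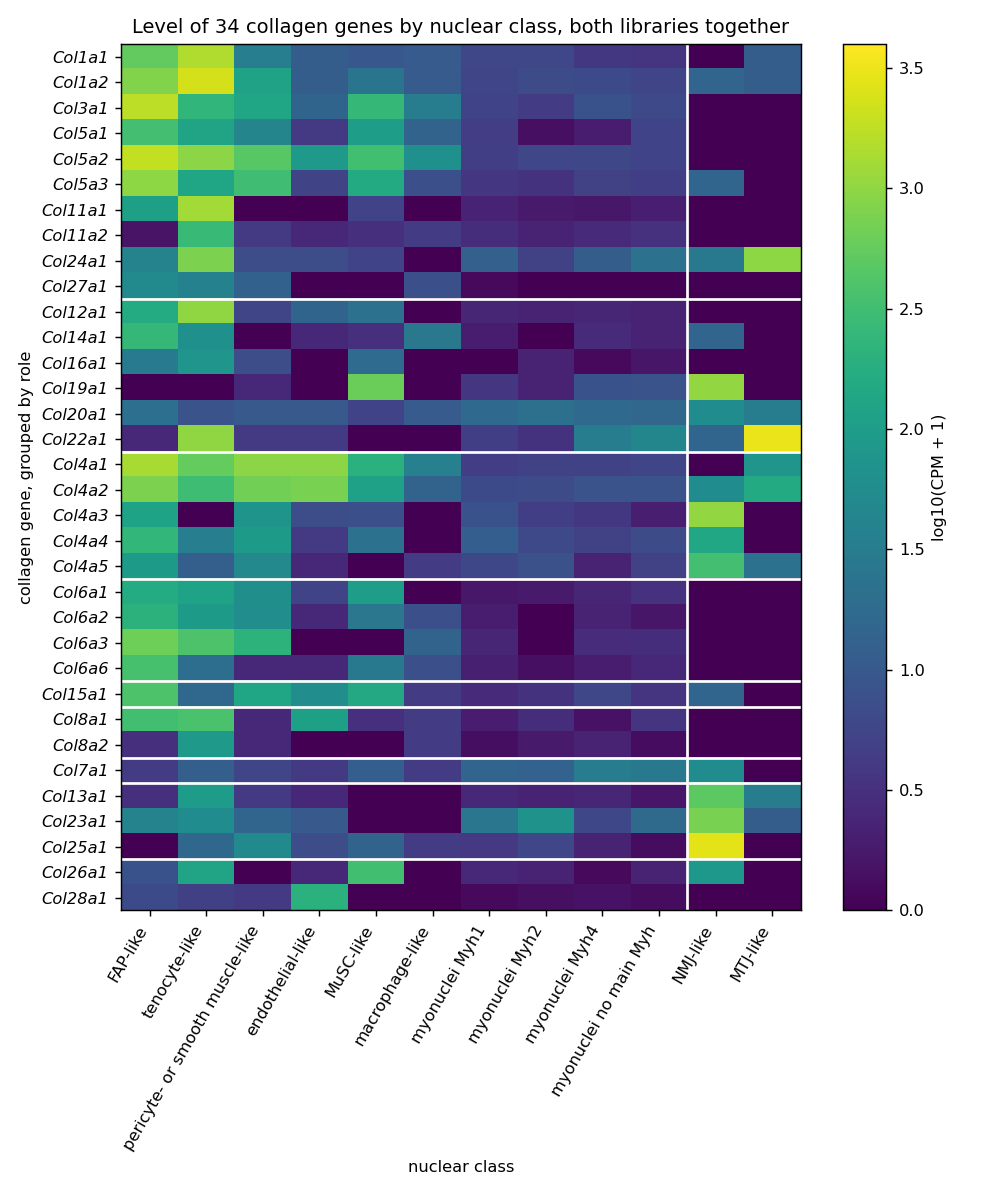
Level of the 34 collagens with a leading class (rows, grouped by role between white lines) in 12 nuclear classes (columns, the junction classes right of the vertical line), as log10(CPM + 1) over both libraries. Most rows are brightest in the FAP-like or tenocyte-like column, while *Col28a1* is brightest in endothelial-like nuclei (198 CPM), *Col25a1* in NMJ-like nuclei (2798 CPM) and *Col22a1* in MTJ-like nuclei (3152 CPM).

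Fibrillar chains were divided between FAP-like and tenocyte-like nuclei. *Col3a1*, the chain of type III fibrils, was at 1730.0 CPM in FAP-like nuclei and 247 CPM in the next class, MuSC-like nuclei. The type V chains, which take part in the start of fibrils, were led by FAP-like nuclei: *Col5a2* at 1846 CPM against 929.8 CPM in tenocyte-like nuclei, *Col5a1* at 329.7 CPM against 127 CPM, and *Col5a3* at 974 CPM against 315 CPM in pericyte- or smooth muscle-like nuclei. The type I chains, the main protein of tendon, were led by tenocyte-like nuclei, with *Col1a1* at 1475 CPM against 539 CPM in FAP-like nuclei and *Col1a2* at 2330.2 CPM against 831 CPM.

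Among classes of at least 50 nuclei, the minor fibrillar chains set tenocyte-like nuclei further apart. *Col11a1* was at 1273 CPM there and 110.4 CPM in FAP-like nuclei, and *Col11a2* at 273 CPM there and 3.28 CPM in the next class. *Col24a1* was at 777 CPM in tenocyte-like and 39.3 CPM in FAP-like nuclei. It was higher in the small MTJ-like class, at 977 CPM on 93 UMIs. Myonuclei held 129 of its 306 UMIs under the label WT and 184 of its 298 under the label KO. *Col27a1* was the exception, led by FAP-like nuclei at 52.3 CPM with an interval that overlaps that of tenocyte-like nuclei (37.3 CPM). *Col2a1*, the cartilage chain, had 12 UMIs in all, 8 of them in tenocyte-like nuclei.

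Fibril-associated collagens had the widest spread of leading classes. *Col12a1* (1012 CPM), *Col22a1* (1008 CPM) and *Col16a1* (74.7 CPM) were led by tenocyte-like nuclei, and *Col14a1* by FAP-like nuclei at 249 CPM against 63.5 CPM in tenocyte-like nuclei. *Col20a1* was nearly flat, at 20.3 CPM in myonuclei with main *Myh2* and 19.4 CPM in FAP-like nuclei. *Col19a1* was led by MuSC-like nuclei at 610.3 CPM, 84.6 times the next large class, myonuclei with no main Myh at 7.21 CPM.

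*Col19a1* and *Col26a1* were the 2 collagens led by MuSC-like nuclei. *Col19a1* was at 557 and 685 CPM there in the libraries labelled WT and KO (log2 ratio of the library labelled KO over that labelled WT, with its interval, 0.30, -0.05 to 0.64). *Col26a1* was at 286 and 374 CPM (0.39, -0.10 to 0.87), and both intervals hold 0. Nuclei with at least 1000 UMIs were thinned to 1000 and shallower ones left out (65 of 186 and 40 of 127 MuSC-like nuclei), after which 37.2 and 33.3% of the 121 and 87 others held a *Col19a1* UMI (30.1 and 36.2% of all, unthinned, at a median depth of 1254.5 and 1308 UMIs). In FAP-like nuclei, which are deeper (median 1956 and 1734.5 UMIs), 0 of 414 and 0 of 275 thinned nuclei held one.

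*Col28a1*, a collagen with domains like those of type VI chains, was led by endothelial-like nuclei. Of its 150 UMIs, 131 were in endothelial-like nuclei, and the next class, FAP-like nuclei, was at 5.39 CPM. In endothelial-like nuclei it was at 150.4 and 268 CPM, a log2 ratio of 0.83 (0.32 to 1.36), with a UMI in 30 of 223 and 21 of 130 nuclei. The 5 nuclei with most *Col28a1* held 27 of 59 UMIs in the library labelled WT against 38 of 72 in the library labelled KO.

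Of the type IV chains, *Col4a1* to *Col4a5* were led by FAP-like nuclei among classes of at least 50 nuclei, with vessel classes second. Smaller classes were higher for *Col4a3* (1039 CPM) and *Col4a5* (332 CPM), both in NMJ-like nuclei, and for *Col4a4* (372 CPM), in an unnamed cluster. *Col4a1* was at 1325 CPM in FAP-like and 941 CPM in endothelial-like nuclei, and *Col4a2* at 780.1 CPM and 752 CPM with overlapping intervals. Pericyte- or smooth muscle-like nuclei were second for *Col4a3* (73.0 CPM against 119.6 CPM in FAP-like nuclei), *Col4a4* (91.3 CPM against 244 CPM) and *Col4a5* (48.7 CPM against 91.1 CPM). *Col4a6* had 51 UMIs in all. In the library labelled WT alone, *Col4a5* was at 54.6 CPM in pericyte- or smooth muscle-like nuclei and 53.7 CPM in FAP-like nuclei.

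The UMIs of each head-to-head pair were split between its members as follows, as raw UMIs that are not scaled to gene length. *Col4a1* held 64.0 and 61.1% of the UMIs of *Col4a1* and *Col4a2* in FAP-like nuclei of the libraries labelled WT and KO, 58.3 and 57.8% in pericyte- or smooth muscle-like nuclei, and 54.9 and 56.5% in endothelial-like nuclei. In myonuclei it held 41.5% (32.02 to 51.5) and 32.1% (23.3 to 41.8), but *Col4a1* was there at 0.362 and 0.281% of its FAP-like level and FAP markers at a median of 0.329 and 0.246%, so free RNA was not told apart from expression. *Col4a3* held 32.8 and 32.9% of the UMIs of *Col4a3* and *Col4a4* in FAP-like nuclei, and 62.0% (54.7 to 69.0) and 34.96% (26.6 to 44.1) in myonuclei. NMJ-like nuclei held 63 of the 116 and 12 of the 43 *Col4a3* UMIs of myonuclei. Outside the junction classes its share was 45.7% (36.4 to 55.2) and 28.4% (20.2 to 37.9), with overlapping intervals. *Col4a5* held 83.6 and 85.7% of the UMIs of *Col4a5* and *Col4a6* in FAP-like nuclei.

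Over both libraries, the type VI chains with a leading class were led by FAP-like nuclei. *Col6a3* was at 634 CPM there and 392 CPM in tenocyte-like nuclei, *Col6a2* at 203 CPM and 89.6 CPM, and *Col6a1* at 165 CPM and 123 CPM with overlapping intervals. In the library labelled KO alone, MuSC-like nuclei led for *Col6a1*. *Col6a6*, a chain related to *Col6a3*, was more restricted, at 355 CPM and 27.9 CPM in the next class, MuSC-like nuclei. *Col15a1*, a multiplexin of the basement membrane zone, was at 392 CPM in FAP-like and 146 CPM in MuSC-like nuclei. *Col8a1*, a short-chain network collagen, was at 369.7 CPM in tenocyte-like and 321 CPM in FAP-like nuclei, with overlapping intervals. In the library labelled WT alone, FAP-like nuclei led for *Col8a1*. *Col8a2* had 23 of its 40 UMIs in tenocyte-like nuclei.

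Changes between the libraries are given for collagens with at least 50 UMIs in a class over both libraries, and called at 2-fold or more. In FAP-like nuclei 24 collagens had that many, of which 1 was 2-fold higher (*Col4a5*) and 1 was 2-fold lower (*Col11a1*) in the library labelled KO, beside 1.55% higher and 2.41% lower among all 5436 genes. The interval lay above 0 for 5 collagens, below 0 for 10, and held 0 for 9. Intervals were not counted over all genes, so these numbers have no background share and are not read as a trait of collagens. Their median log2 ratio was -0.18, beside -0.09 for all genes. Myonuclear markers summed to 1706 and 4002 CPM in FAP-like nuclei of the libraries labelled WT and KO, and their part in these ratios was not tested.

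*Col4a5* was the collagen with the highest ratio in FAP-like nuclei. Its chain, altered in Alport syndrome, forms a network with those of *Col4a3* and *Col4a4*. It was at 53.7 and 150.1 CPM on 61 and 108 UMIs, a log2 ratio of 1.48 (1.02 to 1.96). The UMIs lay in 45 of 499 and 54 of 338 nuclei, and without the 5 nuclei with most of them in each library the log2 ratio was 1.31 (0.78 to 1.86). Thinned, 5.07% (3.17 to 7.65) and 12.7% (9.03 to 17.3) of nuclei held one, beside 9.02 and 15.98% unthinned and 0.168 and 0.631% of thinned myonuclei.

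The partners of *Col4a5* were higher by less. *Col4a3* was at 98.5 and 153 CPM, a log2 ratio of 0.63 (0.24 to 1.03), and *Col4a4* at 201 and 311 CPM, a log2 ratio of 0.63 (0.36 to 0.90). *Col4a1* and *Col4a2*, the chains of nearly every basement membrane, were close to level: *Col4a1* was at 1371 and 1252 CPM (-0.13, -0.25 to -0.01) and *Col4a2* at 769.9 and 796 CPM (0.05, -0.11 to 0.20). *Col4a6* had 12 and 18 UMIs, below the minimum.

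*Col6a1*, *Col6a2* and *Col6a3* were lower, and *Col6a6* was not. The type VI genes held 0.153% of UMIs of FAP-like nuclei in the library labelled WT against 0.109% in the library labelled KO, a log2 ratio of -0.49 (-0.62 to -0.37). *Col6a1* was at 199.7 and 109.8 CPM (-0.86, -1.25 to -0.49), *Col6a2* at 245 and 136 CPM (-0.85, -1.20 to -0.51) and *Col6a3* at 743 and 461 CPM (-0.69, -0.88 to -0.50), each short of 2-fold. *Col6a6* was at 341 and 378 CPM (0.15, -0.08 to 0.38). Without the 5 top nuclei of each library the log2 ratios were -1.0 for *Col6a1*, -0.98 for *Col6a2* and -0.71 for *Col6a3*. Thinned shares of FAP-like nuclei with a UMI were 46.4 and 34.9% for *Col6a3* (62.3 and 47.9% unthinned) and 16.4 and 12.7% for *Col6a1* (31.5 and 19.8% unthinned), with intervals that overlap for *Col6a1*.

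*Col15a1* was lower as well. It was at 458 and 288 CPM in FAP-like nuclei, a log2 ratio of -0.67 (-0.91 to -0.44), and at -0.71 without the 5 top nuclei of each library. A *Col15a1* UMI was in 30.9 and 20% of thinned FAP-like nuclei (40.7 and 31.1% unthinned) and in 0.754 and 0.0664% of thinned myonuclei, which had median depths of 3127.5 and 2714 UMIs.

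Among fibrillar chains, the most abundant were close to level. *Col5a2* was at 1787 and 1940.1 CPM (0.12, 0.02 to 0.22) and *Col3a1* at 1689 and 1794 CPM (0.09, -0.02 to 0.19), which pools clusters that differ for *Col3a1*. *Col5a3* was lower at 1103 and 769 CPM (-0.52, -0.67 to -0.38), as were *Col1a1* at 596 and 450.3 CPM (-0.40, -0.60 to -0.21) and, by little, *Col1a2* at 871 and 769 CPM (-0.18, -0.33 to -0.03). *Col5a1*, at 336 and 319.6 CPM, and *Col8a1*, at 309.7 and 339 CPM, had intervals that hold 0. *Col14a1*, which binds fibrils, was higher at 221 and 295 CPM (0.42, 0.15 to 0.69).

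The ratios of *Col11a1* and *Col12a1* rested on few nuclei. *Col11a1* was at 143 and 58.4 CPM in FAP-like nuclei (-1.30, -1.82 to -0.80). Under the label WT 5 nuclei held 162 of its 163 UMIs, and under the label KO 5 nuclei held all 42. *Col12a1* was at 194 and 115 CPM (-0.75, -1.13 to -0.38), and without the 5 top nuclei of each library its log2 ratio was 0.26 (-0.50 to 1.01). With no doublet removal both turned to the other direction, at 0.68 and 1.34. Tenocyte markers summed to 228 CPM (7 UMIs) in the 5 nuclei with most *Col11a1* of the library labelled WT and to 87.1 CPM (1 UMI) in those of the library labelled KO, against 30.8 and 27.8 CPM in all FAP-like nuclei, and their part in the ratio was not tested.

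**Figure D3:**
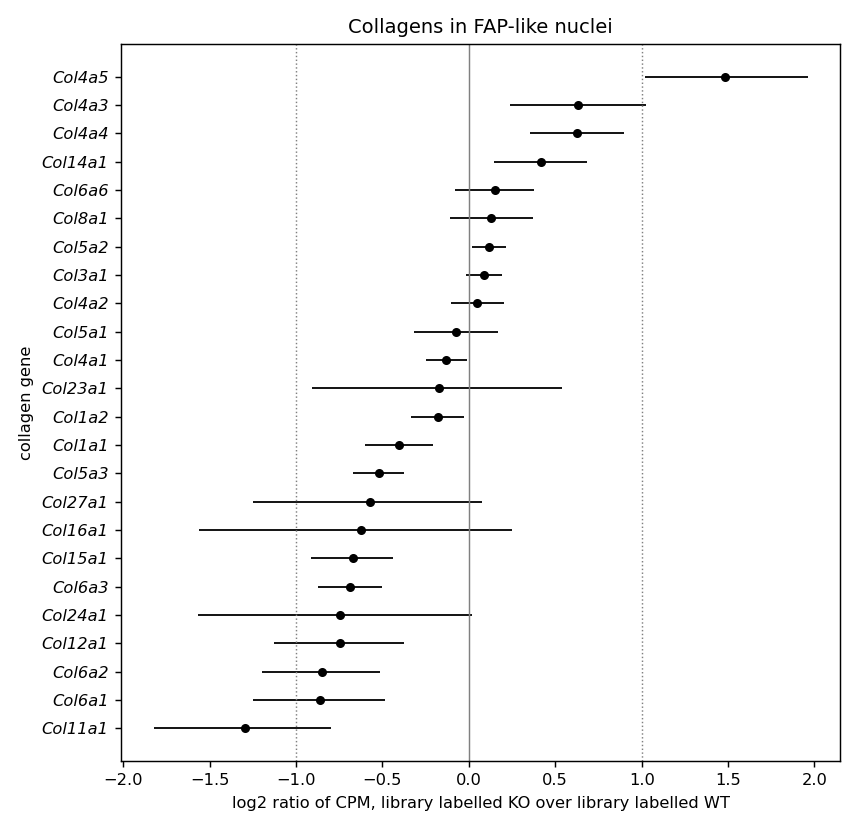
Log2 ratio of CPM in FAP-like nuclei (x axis, library labelled KO over library labelled WT) for the 24 collagens with at least 50 UMIs (y axis), with exact conditional 95% intervals as lines and a 2-fold difference as dotted lines. *Col4a5* lies at 1.48 and *Col11a1* at -1.30, and *Col6a1*, *Col6a2* and *Col6a3* lie between -0.86 and -0.69.

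At a clustering resolution of 1.0 FAP-like nuclei fell into 3 clusters. The first, with 328 and 244 nuclei in the libraries labelled WT and KO, was led by *Adgrl3*, *Lrrtm3* and *Gfra1*, the second, with 92 and 50, by *Cdh13*, *Hmcn1* and *Plcxd3*, and the third, with 79 and 44, by *Cmah*, *Efemp1* and *Dpp4*. Collagens differed among them. *Col15a1* was at 534 CPM in the first and 141 CPM in the second, and *Col6a6* at 455, 63.4 and 262 CPM in order. *Col14a1* ran the other way, at 98.5, 550.3 and 574 CPM.

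Within the first cluster alone the type IV and type VI differences were as large or larger. *Col4a5* was at 57.3 and 170.3 CPM (1.57, 1.02 to 2.13), *Col4a3* at 88.0 and 178 CPM (1.02) and *Col4a4* at 209 and 389 CPM (0.89, 0.58 to 1.21). *Col6a1* was at 228 and 108 CPM (-1.08, -1.54 to -0.63), *Col6a2* at 287 and 152 CPM (-0.91), *Col6a3* at 897 and 497 CPM (-0.85) and *Col15a1* at 652 and 357 CPM (-0.87, -1.13 to -0.62). The second cluster differed. *Col4a4* was at 223 and 177 CPM there (-0.34, -1.14 to 0.42) and *Col15a1* at 114 and 194 CPM (0.77, -0.11 to 1.63), with intervals that do not overlap those of the first, and *Col6a3* was level at 534 and 547 CPM (0.04, -0.42 to 0.48). In the third, *Col4a3* was at 152 and 68.9 CPM (-1.14, -2.60 to 0.12) and *Col4a4* at 133 and 88.6 CPM (-0.58, -1.89 to 0.60), on few UMIs. *Col3a1* had a log2 ratio of -0.12 (-0.25 to 0.01) in the first cluster, 0.54 (0.31 to 0.78) in the second and 0.36 (0.11 to 0.60) in the third. *Col1a1* had a log2 ratio of -0.81 (-1.09 to -0.55) in the first cluster, -0.20 (-0.58 to 0.17) in the second and 0.83 (0.35 to 1.31) in the third, and the intervals of the first and the third do not overlap.

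In tenocyte-like nuclei 13 collagens had 50 UMIs, of which none was 2-fold higher and 1 was 2-fold lower, beside 2.58% higher and 2.41% lower among all 1162 genes. The lower one was *Col11a2*, at 373 and 179.9 CPM (-1.05, -1.81 to -0.32), which median-of-ratios scaling put at -0.94, short of 2-fold. The median of the 13 was 0.44, beside 0.05 for all genes. *Col22a1*, known from the tendon junction, was at 1312 and 727 CPM (-0.85, -1.22 to -0.49), with 88 of 169 and 78 of 101 UMIs in 5 nuclei, and at -1.27 without the top nucleus of each library. *Col24a1* was at 908 and 655 CPM (-0.47, -0.88 to -0.06).

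The chains on the other side were of basement membrane, network and fibril. *Col4a2* was at 202 and 403 CPM (1.00, 0.30 to 1.73, just under 2-fold) and *Col4a1* at 411 and 684 CPM (0.73, 0.23 to 1.25). *Col8a1* was at 248 and 482 CPM (0.96, 0.33 to 1.61), *Col5a2* at 699 and 1144 CPM (0.71, 0.33 to 1.10) and *Col12a1*, a collagen of tendon fibril surfaces, at 854 and 1159 CPM (0.44, 0.08 to 0.80). With TMM scaling, *Col4a2* and *Col8a1* passed 2-fold at 1.04 and 1.00. The intervals of the chains with most UMIs held 0: *Col1a2* was at 2437 and 2231 CPM (-0.13, -0.36 to 0.10), *Col1a1* at 1615 and 1346 CPM (-0.26, -0.56 to 0.03) and *Col11a1* at 1164 and 1374 CPM (0.24, -0.08 to 0.56). For *Col1a1* this rested on 1 nucleus with 79 of the 187 UMIs under the label KO, and without the top nucleus of each library it was lower, at -0.94 (-1.29 to -0.59), as was *Col1a2*, at -0.29 (-0.54 to -0.04). A *Col1a1* UMI was in 44 of 52 and 31 of 51 nuclei.

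In pericyte- or smooth muscle-like nuclei 9 collagens had 50 UMIs and none was 2-fold higher or lower, beside 1.07% higher and 1.9% lower among all 2521 genes. *Col4a1* and *Col4a2*, with most UMIs, were close to level at 901 and 966 CPM (0.10, -0.13 to 0.33) and 644 and 705 CPM (0.13, -0.15 to 0.41). *Col5a2* at 369 and 584 CPM (0.66, 0.33 to 1.00) and *Col5a3* at 243 and 406 CPM (0.74, 0.33 to 1.15) were higher. *Col25a1*, led by this class on 33 UMIs, was at 50.2 CPM.

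In endothelial-like nuclei 5 collagens had 50 UMIs, of which none was 2-fold higher and 2 were 2-fold lower, beside 1.71% higher and 3.38% lower among all 2694 genes. *Col5a2* was at 127 and 26.1 CPM (-2.29, -3.68 to -1.14), with 50 UMIs in 12 nuclei and 7 UMIs in 4 nuclei. *Col8a1* was at 155 and 44.7 CPM (-1.80, -2.83 to -0.89), with 61 UMIs in 19 nuclei and 12 UMIs in 3 nuclei. Both thus rest on few nuclei, although without the top nucleus of each library they were at -2.54 and -2.57. *Col4a1* and *Col4a2* held 41.4 and 33.1% of the collagen UMIs of the class and were close to level, at 899.8 and 1001 CPM (0.15, -0.08 to 0.39) and 739 and 770.4 CPM (0.06, -0.20 to 0.32).

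In MuSC-like nuclei 8 collagens had 50 UMIs, of which 1 was 2-fold higher and 1 was 2-fold lower, beside 1.64% higher and 2.41% lower among all 2076 genes. *Col15a1* was at 84.3 and 234 CPM (1.47, 0.71 to 2.26), on 23 UMIs in 16 nuclei and 45 UMIs in 24 nuclei. This is the opposite direction to FAP-like nuclei, and a difference between the classes was not tested. *Col5a3* was at 202 and 93.5 CPM (-1.11, -1.97 to -0.32). Without the 5 top nuclei of each library the log2 ratios were 1.87 and -1.29. FAP markers summed to 928 and 1059 CPM in MuSC-like nuclei, and their part in these values was not tested. In macrophage-like nuclei no collagen had 50 UMIs.

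The most abundant collagens of FAP-like and tenocyte-like nuclei were found in myonuclei at a small share of their FAP-like level, as FAP markers were. FAP markers were in myonuclei at a median of 0.329 and 0.246% of their FAP-like level in the libraries labelled WT and KO. *Col3a1* was at 0.307 and 0.266% of its own, *Col5a2* at 0.259 and 0.219%, *Col1a2* at 0.557 and 0.661% and *Col1a1* at 0.663 and 0.897%. The collagens with most UMIs in myonuclei were others, *Col22a1*, *Col23a1*, *Col7a1*, *Col24a1* and *Col20a1*, and *Col7a1*, the anchoring fibril collagen, had 378 of its 399 UMIs in myonuclei.

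These 5 collagens followed the myosin classes differently. *Col23a1*, a transmembrane collagen, was at 58.9 and 74.6 CPM in myonuclei with main *Myh2*, 30.3 and 19.2 CPM with main *Myh1* and 2.85 and 8.09 CPM with main *Myh4*. In the library labelled WT alone, tenocyte-like nuclei led for *Col23a1*. *Col7a1* was at 41.9 and 20.2 CPM with main *Myh4* and 13.9 and 14.0 CPM with main *Myh1*. In the library labelled KO alone, myonuclei with no main Myh led for *Col7a1*. Over both libraries they were at 27.5 CPM against 32.9 CPM with main *Myh4*, with overlapping intervals. With main *Myh2*, *Col7a1* had 4 and 28 UMIs, below the minimum for a change, at a log2 ratio of 1.84 (0.32 to 3.81). *Col22a1* was at 38.2 and 25.4 CPM with main *Myh4* and 3.76 and 3.49 CPM with main *Myh1*, but 5 nuclei held 77 of its 94 and 38 of its 44 UMIs with main *Myh4*, and its log2 ratio there was -0.59, or -0.05 (-0.77 to 0.65) without the top nucleus of each library. *Col24a1* was at 8.41 and 15.2 CPM with main *Myh1* and 9.77 and 11.6 CPM with main *Myh4*. *Col20a1* ranged from 12.6 to 24.7 CPM over 4 myonuclear classes and both libraries.

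Within the myosin classes, 6 collagens had 50 UMIs with main *Myh1*, 2 with main *Myh2*, 3 with main *Myh4* and 4 with no main Myh, and none was 2-fold higher, beside 4.08, 3.43, 2.83 and 4.64% of all genes. Among all genes 3.73, 3.45, 4.29 and 4.13% were 2-fold lower, and among collagens *Col7a1* with main *Myh4* and *Col22a1* with no main Myh. *Col7a1* was on 103 and 35 UMIs, a log2 ratio of -1.05 (-1.65 to -0.49), which TMM scaling put at -0.97, short of 2-fold. *Col22a1* with no main Myh was at 82.3 and 26.3 CPM (-1.64), but 1 nucleus held 61 of the 76 UMIs counted under the label WT, and without the top nucleus of each library the log2 ratio was -0.08 (-0.997 to 0.91). With main *Myh1*, *Col23a1* had a log2 ratio of -0.66 (-1.08 to -0.25), *Col20a1* of 0.62 (0.11 to 1.13) and *Col24a1* of 0.86 (0.25 to 1.48). By TMM the centre of all genes lay at -0.12 over all myonuclei, -0.12 with main *Myh1*, -0.19 with main *Myh2* and -0.22 with no main Myh, and ratios taken relative to it are that much higher.

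Over all myonuclei 19 collagens had 50 UMIs, of which 1 was 2-fold higher and 3 were 2-fold lower, beside 3.99% higher and 3.94% lower among all 10421 genes. The higher one was *Col4a5*, as in FAP-like nuclei. Its level was 5.47 and 5.52% of that in FAP-like nuclei, near equal in the libraries. Single FAP markers in myonuclei ranged from 0.0616 to 2.09% and from 0.137 to 2.22%. The part of free RNA in the myonuclear level and ratio of *Col4a5* was not tested. It was at 2.93 and 8.29 CPM on 26 and 80 UMIs, a log2 ratio of 1.499 (0.84 to 2.20), and at 2.06 and 6.46 CPM (1.65, 0.87 to 2.50) outside the junction classes. Without the 5 top nuclei of each library it was at 1.71. The counts in myonuclei with main *Myh1* were 6 and 37 UMIs, in 5 and 21 nuclei.

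The 3 lower collagens were *Col25a1*, *Col4a3* and *Col15a1*. *Col25a1* was at 23.4 and 3.94 CPM (-2.57, -3.11 to -2.06) and *Col4a3* at 13.1 and 4.46 CPM (-1.55, -2.09 to -1.04), and both are junction genes described next. *Col15a1* was at 4.4 and 1.14 CPM (-1.95, -3.06 to -0.96), which is 0.960 and 0.396% of its level in FAP-like nuclei. These shares lie within the range of single FAP markers given above, and the part of free RNA was not tested here either. *Col22a1* was at 42.1 and 24.5 CPM (-0.78, -1.02 to -0.54), short of 2-fold, and at -0.63 without the top nucleus of each library.

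**Figure D4:**
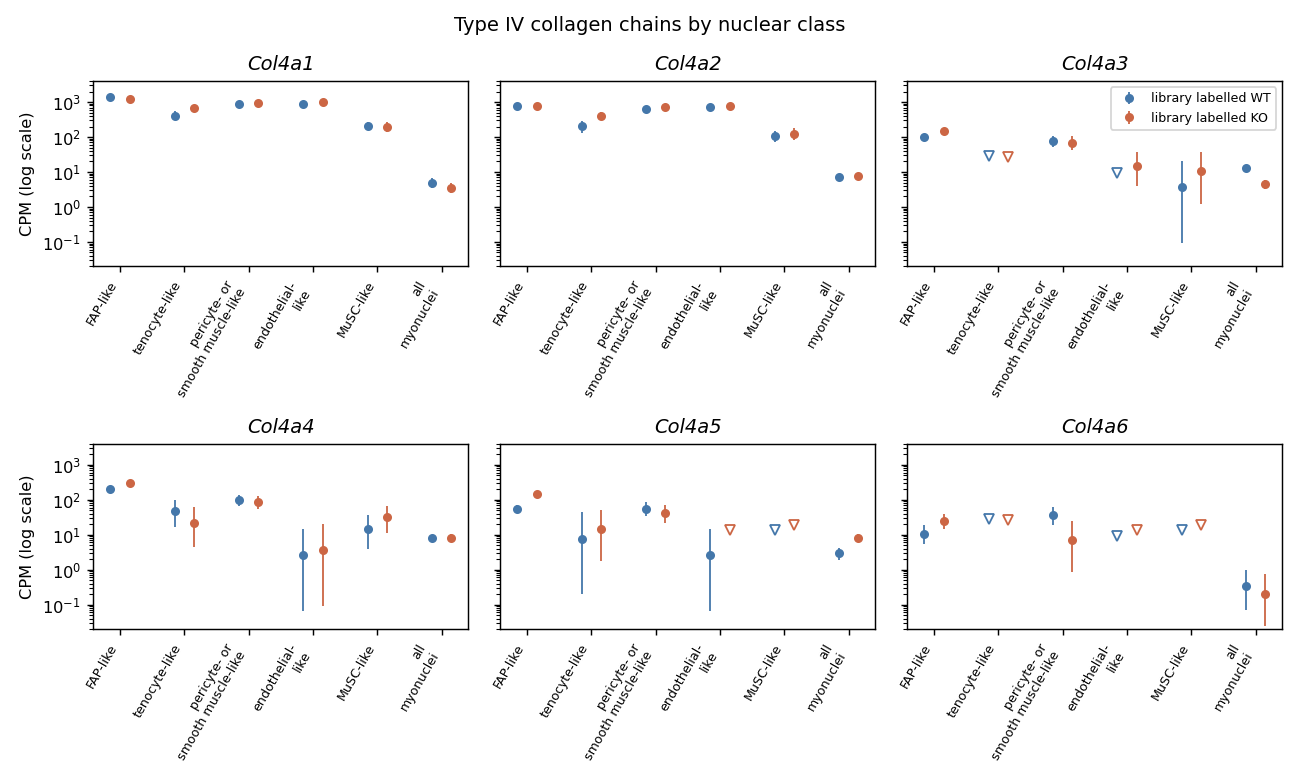
CPM (y axis, log scale) of the 6 type IV collagen genes in 6 nuclear classes (x axis) in the libraries labelled WT (blue) and KO (red), with exact Poisson 95% intervals as lines and open triangles at the upper limit where no UMI was found. *Col4a5* is higher in the library labelled KO in FAP-like nuclei (53.7 and 150.1 CPM) and all myonuclei (2.93 and 8.29 CPM), while *Col4a3* is higher in FAP-like nuclei and lower in all myonuclei (13.1 and 4.46 CPM).

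NMJ-like nuclei held a collagen set of their own, with *Col25a1* at 2798 CPM over both libraries, *Col4a3* at 1039 CPM, *Col19a1* at 1025 CPM, *Col23a1* at 762 CPM, *Col13a1* at 499 CPM and *Col4a5* at 332 CPM. *Col25a1* and *Col13a1* are transmembrane collagens, the first needed for motor innervation and the second a part of the synapse, and *Col4a3* and *Col4a5* chains are found in the synaptic basement membrane. Of the *Col25a1* UMIs in myonuclei, 183 of 207 in the library labelled WT against 19 of 38 in the library labelled KO were in NMJ-like nuclei. Outside the junction classes *Col25a1* was at 2.74 and 1.98 CPM (-0.47, -1.42 to 0.46) and *Col4a3* at 6.06 and 3.23 CPM (-0.91, -1.60 to -0.24). NMJ-like nuclei were also fewer in the library labelled KO, at 8 of 3087 myonuclei against 15 of 2414.

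Within NMJ-like nuclei the values of single nuclei overlapped between the libraries. Single nuclei did not all hold the same collagens. Under the label KO the 3 nuclei with *Col19a1* (6, 6 and 4 UMIs) had no *Col25a1*. Under the label WT the nucleus with most *Col19a1* (21 UMIs) had no *Col25a1*, while another held 9 UMIs of *Col19a1* and 4 of *Col25a1*. Values of the class pool these nuclei, and the part of their mix in the ratios was not tested. *Col25a1* ranged from 0 to 74 UMIs in the library labelled WT, with a UMI in 8 of 15 nuclei, and from 0 to 12 in the library labelled KO, with a UMI in 3 of 8. It was at 3629 and 873 CPM (-2.06, -2.82 to -1.37), and at -2.63 without the top nucleus of each library. *Col4a3* ranged from 0 to 17 and from 0 to 5 UMIs, at 1249 and 551 CPM (-1.18, -2.21 to -0.28). *Col4a5* went the other way, with 6 UMIs in 4 of 15 nuclei and 18 UMIs in 7 of 8 nuclei, at 119 and 827 CPM (2.80, 1.40 to 4.42).

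The other NMJ collagens did not move as a set. *Col13a1* was level, at 496 and 505 CPM (0.03, -1.14 to 1.10), and *Col19a1*, at 1150.3 and 735 CPM (-0.65, -1.54 to 0.17), had an interval that holds 0. *Col23a1* was at 972 and 276 CPM (-1.82, -3.33 to -0.59), with 1 nucleus holding 24 of the 49 UMIs under the label WT. The markers that named the class summed to 4046 and 4273 CPM.

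In MTJ-like nuclei *Col22a1* held 70.4% and *Col24a1* 21.8% of all collagen UMIs. *Col22a1* was found in 13 of 14 and 8 of 8 nuclei, from 0 to 82 and from 3 to 31 UMIs, at 2936 and 3567 CPM (0.28, -0.07 to 0.62). Without the top nucleus of each library its log2 ratio was 0.60 (0.17 to 1.03). *Col24a1* was found in 9 of 14 and 7 of 8 nuclei, at 718 and 1476 CPM (1.04, 0.42 to 1.66), and the values of single nuclei overlap between the libraries for both genes. Outside the junction classes, *Col22a1* in myonuclei was at 21.5 and 12.5 CPM (-0.78, -1.12 to -0.44) and *Col24a1* at 9.37 and 14.2 CPM (0.60, 0.19 to 1.01).

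**Figure D5:**
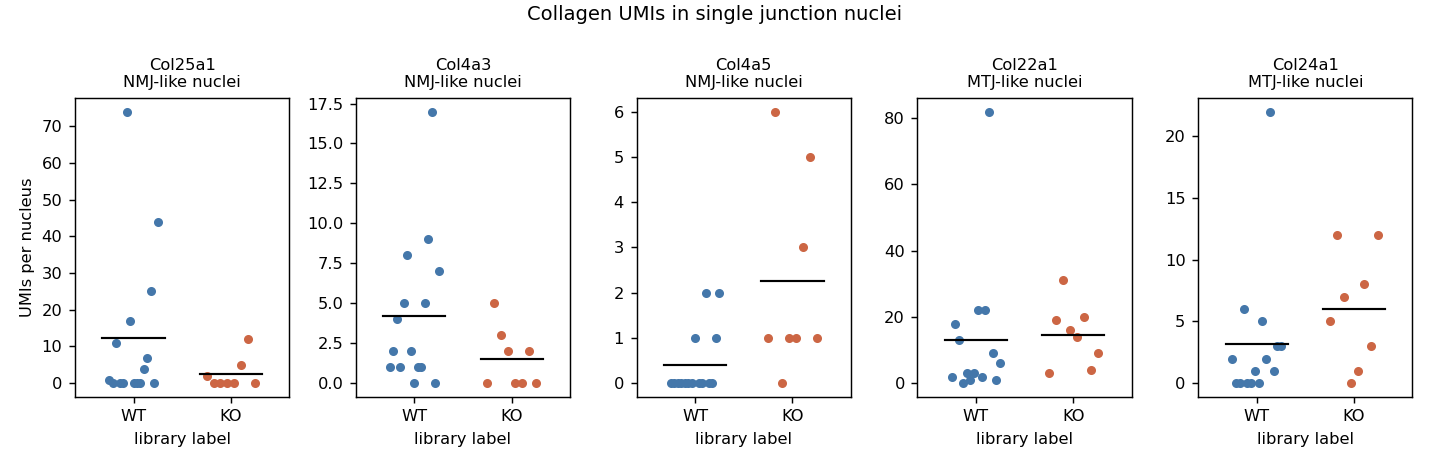
UMIs per nucleus (y axis, linear, with its own scale in each panel) of *Col25a1*, *Col4a3* and *Col4a5* in NMJ-like nuclei and of *Col22a1* and *Col24a1* in MTJ-like nuclei, by library label (x axis); each point is 1 nucleus and the line is the mean. *Col25a1* reaches 74 UMIs in the library labelled WT against 12 in the library labelled KO, and *Col4a5* reaches 2 and 6.

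Genes that fold, modify, process, bind or degrade collagen, and TGF-beta genes that act on its synthesis, were read from lists with the same minimum of 50 UMIs. The lists were chosen with earlier results of these data known. In FAP-like nuclei none of 11 folding and modification genes, 4 receptors and 5 degradation genes was 2-fold higher or lower, beside 1.55% higher and 2.41% lower among all genes. Of 11 processing and cross-linking genes *Tll2*, a tolloid-like protease, was lower at 39.6 and 9.73 CPM (-2.03, -3.42 to -0.87). Of 5 TGF-beta genes *Tgfb3*, a ligand, was higher at 20.2 and 44.5 CPM (1.14, 0.32 to 1.98).

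In all myonuclei 2 of 15 folding and modification genes were 2-fold higher and none was lower, beside 3.99 and 3.94% of all genes. *P3h2*, a prolyl 3-hydroxylase known to act on type IV collagen, was at 3.84 and 19.7 CPM (2.36, 1.83 to 2.93), with 11.8 and 49.3 CPM where *Myh2* was the main myosin and 2.21 and 18.0 CPM where *Myh1* was. *Fkbp10*, a collagen chaperone, was at 1.35 and 4.87 CPM (1.85, 0.91 to 2.90). *Tgfb3* was higher in all myonuclei at 8.80 and 22.8 CPM (1.37, 0.99 to 1.76). It was also 2-fold higher with main *Myh1* (1.42), main *Myh4* (1.23) and no main Myh (2.18), as 1 of 4 TGF-beta genes in each. *Adamts2*, a procollagen N-proteinase, was at 15.3 and 55.3 CPM with main *Myh2* (1.85, 1.01 to 2.82).

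Other 2-fold differences of receptors and TGF-beta genes are given with the number of list genes that had 50 UMIs. *Itga2*, a subunit of a collagen-binding integrin, was lower in tenocyte-like nuclei at 668 and 309 CPM (-1.11, -1.67 to -0.57). This was 1 of 5 receptors there, beside 2.41% lower among all genes. *Adgrg6*, an adhesion receptor that binds type IV collagen, was lower in pericyte- or smooth muscle-like nuclei at 169 and 75.6 CPM (-1.16, -1.94 to -0.44). It was 1 of 4 receptors there, beside 1.9% lower among all genes. In macrophage-like nuclei it was the 1 receptor with 50 UMIs and higher, at 177 and 392 CPM (1.15, 0.47 to 1.84). There 2.92% of all 1475 genes were higher and as many lower. Myonuclear markers summed to 2673 and 9651 CPM in macrophage-like nuclei, and their part in this ratio and in the collagen share of the class was not tested. With main *Myh1*, *Mrc2*, a collagen uptake receptor, was higher (1.06), as was *Cspg4* (1.21). These were 2 of 4 receptors, beside 4.08% higher among all genes. With no main Myh the collagen receptor kinase *Ddr1* was lower (-1.30), as the 1 receptor with 50 UMIs, beside 4.13% of all genes. *Tgfb2* was lower in MuSC-like nuclei (-1.02), as 1 of 2 TGF-beta genes, beside 2.41% of all genes. In pericyte- or smooth muscle-like nuclei it was the 1 TGF-beta gene with 50 UMIs and lower (-1.15), beside 1.9% of all genes. *Tgfbr1* was lower in macrophage-like nuclei (-1.02), as 1 of 2 TGF-beta genes.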

How the data were processed

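The authors made the deposited UMI counts per gene and nucleus with Cell Ranger 7.0.0 (mm10, per the submitters' processing notes); the annotation and the counting of introns are not given in the sources used here. The study's methods name a 3′ gene expression kit and the labels a Multiome kit. The deposited libraries held 3798 and 4096 barcodes with 11974138 and 12026013 UMIs (labelled WT and KO). The study's own doublet and batch steps (DoubletFinder, Harmony) were not repeated.

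Nuclei with 200 to 5000 genes and at most 5% mitochondrial UMIs were kept, and the top 0.8% per 1000 barcodes by Scrublet score (scanpy 1.11.5) were removed as doublets (115 and 134 nuclei). Seurat 5.3.0 in R 4.3.3 integrated the libraries (2000 variable genes, 30 components, resolution 0.5) without collagen genes and without 372 genes that differed 2-fold between libraries in myonuclei. Clusters were named from collagen-free marker lists, by thresholds set after the clusters were seen: myonuclear markers at 30000 CPM, otherwise 3 markers in at least 10% of nuclei, a median log2 fold of 2 and 1 marker among the 10 leading genes. UMIs were summed per library and class as CPM with exact Poisson intervals, log2 ratios with exact conditional intervals, and shares with Clopper-Pearson intervals. These cover counting error only. Shares of UMIs within a class or a pair are of raw UMIs, not scaled to gene length, so they rank UMIs and not levels.

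Values named are those of each member's leading class, of members past 2-fold and of those with most UMIs in a class. Further values (single nuclei, FAP clusters, junction nuclei, head-to-head pairs) were chosen after their values were seen. The members and lists were chosen with earlier results of these data known. Of the 44 members, 15 overlap another gene on the same strand and 18 on the opposite strand, so their UMIs may be split or shared. The ratio step was tested on simulated data. Alternatives changed the filters, the class assignment, the depth, the UMI minimum and the scaling (edgeR 4.0.16 for TMM). Protein sequences were not analysed here. Python 3.11.15, numpy 2.4.6, scipy 1.17.1 and pandas 2.3.3 were used.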

Additional observations from a re-analysis of the deposited data

Results flagged for a closer look

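Several collagens had log2 ratios (library labelled KO over WT) of opposite sign in different classes, each with an interval that excludes 0 in its class. With 1 library per group, the differences between classes were not tested. *Col5a2* was at 0.12 in FAP-like, 0.66 in pericyte- or smooth muscle-like and 0.71 in tenocyte-like nuclei, and at -2.29 in endothelial-like nuclei. *Col5a3* was at 0.74 in pericyte- or smooth muscle-like nuclei, and at -0.52 in FAP-like and -1.11 in MuSC-like nuclei. *Col15a1* was at 1.47 in MuSC-like nuclei, and at -0.67 in FAP-like nuclei and -1.95 in all myonuclei. *Col4a3* was at 0.63 in FAP-like nuclei and -1.55 in all myonuclei, and *Col24a1* at 0.39 in all myonuclei and -0.47 in tenocyte-like nuclei. Tenocyte-like nuclei were on the higher side for *Col4a1* (0.73, against -0.13 in FAP-like nuclei), *Col12a1* (0.44, against -0.75 in FAP-like nuclei) and *Col8a1* (0.96, against -1.80 in endothelial-like nuclei). The FAP-like value of *Col12a1* rested on few nuclei: without the 5 top nuclei of each library it was 0.26, and with no doublet removal 1.34, both of the sign in tenocyte-like nuclei. The values of *Col5a2* and *Col8a1* in endothelial-like nuclei rested on 7 and 12 UMIs under the label KO.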

How the results depend on the processing

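No paired analysis was possible because each group is 1 library and the values come from no test, and no replicate could be left out. Over 11 alternatives, 505 of 561 values of named changes stayed within the interval of the reported value. Another 13 changed sign where that interval excludes 0, and the other 43 fell outside it. A change of sign where the interval holds 0 was not counted apart. For the leading class, the 2-fold counts and the collagen shares, 67 of 95 values over all alternatives stayed near the reported value. That is within a set margin for counts and within the interval for shares. Another 26 moved, and 2 shares changed sign. The number of collagens with the same leading class was 25 of 34 thinned, between 31 and 34 under other filters, clusterings, class assignments and the mean of per-nucleus CPM, and 22 with classes under 50 nuclei ranked too, an alternative chosen after seeing the data. Summed over classes, the split of 2-fold higher and lower collagens was 2 and 7, with the numbers tested and all-gene shares given by class above. All-gene shares were not computed under the alternatives, so these counts are not read as a trait of collagens. The higher count was 4 with no doublet removal, at most 1% mitochondrial UMIs, the mean of per-nucleus CPM, TMM and median-of-ratios scaling. Assignment by marker UMIs gave 8 higher and 11 lower, a minimum of 20 UMIs 9 and 11, of 100 UMIs 1 and 3, and of 1 UMI in each library 34 and 45, and thinning left 1 lower. The collagen share in FAP-like nuclei (log2 ratio -0.11) was at -0.047 with no doublet removal, -0.16 at resolution 1.0, -0.010 thinned, -0.011 as a mean per nucleus, -0.056 with TMM and -0.044 with median-of-ratios scaling. In tenocyte-like nuclei (-0.02) it was at -0.28 with no doublet removal and 0.092 with median-of-ratios scaling, and in pericyte- or smooth muscle-like nuclei (0.15) at -0.050 thinned. Assignment by marker UMIs put it at -0.30 in MuSC-like nuclei (0.23) and -0.23 in myonuclei (-0.36), where TMM gave -0.24 and median-of-ratios scaling -0.23. *Col11a1* in FAP-like nuclei turned to 0.68 with no doublet removal, 0.62 at 1% mitochondrial, 0.64 at 500 genes, 0.24 as a mean per nucleus and 0.058 without the 1 nucleus with most of its UMIs, and *Col12a1* to 1.34, 1.16, 1.15 and 0.085 in the first 4 of these. *Col1a2* in FAP-like nuclei turned to 0.044 as a mean per nucleus, and *Col20a1* with main *Myh4* to -0.10 thinned. *Col22a1* without that 1 nucleus turned to 0.50 with main *Myh4* and 0.68 with no main *Myh*. The causes were not tested.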

Other observations

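Some nuclei fell in classes of under 50 nuclei or in clusters left unnamed. Lymphatic endothelial-like nuclei (11 and 6 in the libraries labelled WT and KO) held 0.218 and 0.162% of their UMIs in collagen genes, led by *Col4a1* (28.8% of collagen UMIs), *Col23a1* (24.7%) and *Col4a2* (21.9%). An unnamed cluster of 21 and 16 nuclei, with FAP markers at 6975 and 6052 CPM, held 0.474 and 0.367%, and another of 12 and 10 nuclei, with MuSC markers at 2213 and 3750.4 CPM and FAP markers at 3008 and 647 CPM, held 0.594 and 0.191%. *Col9a1* was in 15 myonuclei under the label WT (19 UMIs) and in 1 under the label KO (1 UMI).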
